A study of Mus musculus with 11 samples.

Results

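The genes described here encode the ligands, receptors, SMAD proteins and regulators of TGF-beta and BMP signalling. They were taken as a list of 34 genes by their known roles, though earlier results of these data were known when it was chosen. Each was read by its probe set with 1 gene symbol and the highest mean over all arrays. All 34 were measured among 19938 genes. They comprise 6 ligands, 2 latent TGF-beta binding proteins, 6 type I and 4 type II receptors, 2 co-receptors, 8 SMADs, 2 SMAD ubiquitin ligases and 4 SMAD corepressors. Expression was measured on 11 Affymetrix arrays, each of sorted classical dendritic cells (cDCs) of the spleen, in mice of C57BL/6 background. Control mice had the genotype Zeb2(fl/fl), with both Zeb2 alleles floxed and no Cre, and gave CD24+ cDCs (3 arrays) and CD172a+ cDCs (4 arrays). Mice labelled Zeb2-deficient had the genotype Zeb2(fl/fl);CD11c-Cre(tg) and gave CD172a+ cDCs (4 arrays). Cre is driven there by CD11c sequences, which are active in cDCs but not in them alone, and no control group carried the transgene, so its own effect and the loss of Zeb2 cannot be told apart. The sources used here state neither the ages of the mice nor whether replicates came from separate animals. The p-values therefore rest on the spread of these samples alone, which may be technical.

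TGF-beta, activins and BMPs are secreted dimers that bring together type II and type I receptor kinases on the cell surface. The type I receptor phosphorylates receptor-regulated SMADs, Smad2 and Smad3 downstream of TGF-beta and activin and Smad1, Smad5 and Smad9 downstream of BMPs, which enter the nucleus with the common partner Smad4. Smad6 and Smad7 block the receptors, the Smurf ligases mark SMADs and receptors for degradation, and Ski, Skil, Tgif1 and Tgif2 hold SMAD target genes repressed. Zeb2, also called SIP1, was found as a protein that binds SMADs, and in dendritic cells TGF-beta is best known for the formation of Langerhans cells of the skin.

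Zeb2, the targeted gene, was read first. It gave 8.23, 8.23, 8.26 and 8.61 (log2 expression) in control CD172a+ cDCs and 8.52, 8.32, 9.07 and 9.24 in CD172a+ cDCs labelled Zeb2-deficient, against 5.19, 5.08 and 5.52 in CD24+ cDCs. The arrays labelled Zeb2-deficient were thus not lower, with a log2 difference of 0.45 (exact two-sided permutation test, p = 0.171 over 70 assignments, smallest possible p 0.0286). No source used here places this probe set inside or outside the floxed part of Zeb2. It may therefore check nothing, and the directions given for this group depend on the label being right. The sort labels fitted their markers, with 9 of 10 cDC1 markers such as Xcr1 and Clec9a higher and 9 of 10 cDC2 markers such as Sirpa, which encodes the sorted CD172a, and Irf4 lower in CD24+ than in control CD172a+ cDCs. Array medians of all probe sets lay between 5.455 and 5.521. The arrays also fell into a first and a second set that cross the groups and that were found from the values, not from a label. The first set held CD24+ replicate 1 and replicates 1 and 2 of both CD172a+ groups. Of all genes, 30.1% differed between the sets, so results are also given from a fit that has the set as a term. The sets follow the main direction of spread within groups of these same arrays, so adjusted p-values of that fit may be too small.

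**Figure D1:**
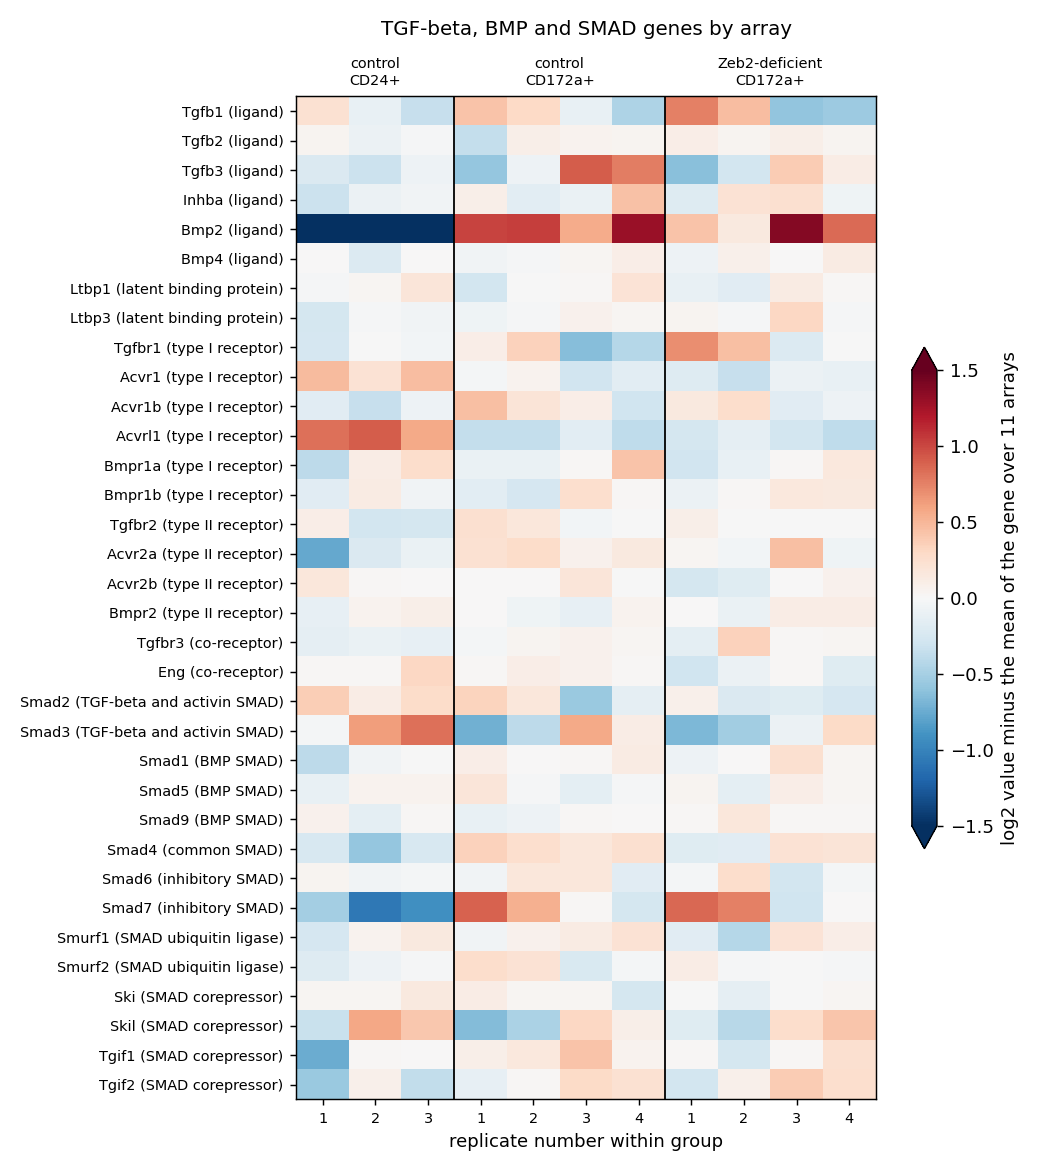
Each row is one of the 34 genes, with its role, and each column is one array, grouped as control CD24+, control CD172a+ and labelled Zeb2-deficient CD172a+ cDCs and numbered by replicate. Colour is the log2 value minus the mean of that gene over the 11 arrays, limited to 1.5 either way. Bmp2 is low on all 3 CD24+ arrays and Acvrl1 is high there, while Tgfb1, Smad3, Smad7 and Skil also shift between replicate numbers within a group.

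The first comparison sets the 2 main splenic cDC subsets of control mice side by side. CD24+ cDCs had less of the ligand gene Bmp2 (9.27-fold, not an exact ratio, as given below) and of the common SMAD gene Smad4 (1.52-fold). They had more of the type I receptor genes Acvrl1 (2.11-fold) and Acvr1 (1.40-fold). These 4 of 34 genes passed in limma at an adjusted p below 0.05 over all genes, 2 higher and 2 lower, and 30 did not. Of all genes tested, 6.41% passed, 3.25% higher and 3.16% lower, against 11.8% of the 34, a difference of few genes that was not tested. The median log2 difference of the 34 genes was -0.07, against -0.02 over all genes. With the array set as a block 8 passed, 2 higher and 6 lower, among 15.4% of all genes (8.55% higher, 6.9% lower). The 4 added were Smad7, Acvr2a, Tgif1 and Tgif2, all lower in CD24+ cDCs. In sorted bulk samples, fewer cells with a transcript and less of it per cell cannot be told apart.

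Among the ligands, 1 of 6 fell and 5 did not pass. Bmp2 encodes a BMP that signals through Bmpr1a or Bmpr1b together with Bmpr2. Its arrays read 4.18, 4.13 and 4.69 in CD24+ cDCs, 7.58, 7.61, 7.13 and 7.86 in control CD172a+ cDCs and 7.0, 6.71, 7.94 and 7.42 in CD172a+ cDCs labelled Zeb2-deficient. Every CD172a+ array of either genotype was thus above every CD24+ array by a wide margin. The control subsets differed by -3.21 on the log2 scale (SE 0.275, 95% interval -3.82 to -2.61, adjusted p = 3.04e-05), by -3.42 within the first array set and -3.09 within the second. The mean of 4.33 ± 0.31 (SD, n = 3) in CD24+ cDCs lay below 4.75, the level under which 90% of olfactory and vomeronasal receptor genes read. RMA compresses differences near background, so the fold is not an exact ratio.

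Tgfb1, the TGF-beta isoform made by most blood cells, averaged 8.85 in CD24+ and 8.97 in control CD172a+ cDCs, a difference of -0.11 with a 95% interval of -0.87 to 0.65. In each group Tgfb1 was lower in the second array set than in the first. Tgfb3 differed by -0.46, but by 0.10 within the first set and -1.03 within the second, and Inhba, which encodes the subunit of activin A, by -0.22. Tgfb2 (0.03) and Bmp4 (-0.08) read close to the same level in all groups, and Bmp4 averaged below 4.75, as did Bmpr1a, Bmpr1b and Smad6. The latent binding proteins Ltbp1 (0.07) and Ltbp3 (-0.12), which hold secreted TGF-beta in the matrix, did not pass.

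Among the receptors, 2 of 6 type I genes rose in CD24+ cDCs, and none of the 4 type II genes or the 2 co-receptors passed. Acvrl1 encodes ALK1, a type I receptor for the ligands BMP9 and BMP10 that is best known from endothelium. It read 7.08, 7.17 and 6.83 in CD24+ cDCs, 5.90, 5.90, 6.10 and 5.88 in control CD172a+ cDCs and 6.00, 6.12, 5.98 and 5.88 in those labelled Zeb2-deficient. The lowest CD24+ array stood above the highest of the 8 CD172a+ arrays, and the controls differed by 1.08 (SE 0.106, adjusted p = 8.81e-05), with 1.18 and 1.01 within the sets. Eng, which encodes endoglin, a co-receptor of ALK1, differed by only 0.07 (95% interval -0.17 to 0.30). Of 10 endothelial markers, none was higher in CD24+ cDCs and 2, Pecam1 (-0.67) and Kdr (-0.51), were lower. Their summed linear level was 402 to 423 in CD24+ and 453 to 486 in control CD172a+ cDCs, and their part in the level of Acvrl1 was not tested.

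Acvr1 encodes ALK2, a type I receptor for BMPs and activins. Its arrays were 6.02, 5.76 and 6.01 in CD24+ cDCs against 5.51, 5.59, 5.26 and 5.39 in control CD172a+ cDCs and 5.35, 5.20, 5.45 and 5.43 in those labelled Zeb2-deficient. The groups of controls did not overlap, and they differed by 0.49 (SE 0.112, adjusted p = 0.0245). This call was lost without CD24+ replicate 1 (0.45, adjusted p = 0.0905), CD24+ replicate 3 (0.45, 0.107), control CD172a+ replicate 3 (0.43, 0.0569) or control CD172a+ replicate 4 (0.47, 0.0582). It was also lost with only the arrays of both groups in the fit (0.49, 0.0684).

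Acvr2a, a type II receptor for activins and BMPs, went the other way. It read 6.25, 6.80 and 6.92 in CD24+ and 7.25, 7.30, 7.09 and 7.17 in control CD172a+ cDCs, with no overlap and the lowest value on the CD24+ array of the first set. The difference was -0.54 (SE 0.171, adjusted p = 0.103) over all arrays. Once the array set was a block it was -0.57 (SE 0.156, adjusted p = 0.0263). Within the first set it was -1.02 and within the second -0.26, so its size rests largely on 1 array. The remaining receptors did not pass either way. Of the receptors for TGF-beta itself, Tgfbr1 differed by 0.05, with the opposite values -0.47 and 0.50 within the sets, and Tgfbr2 by -0.23. Bmpr2 differed by 0.04, Acvr1b by -0.30, Acvr2b by 0.02 and Tgfbr3, the co-receptor betaglycan, by -0.14. Bmpr1a (-0.06) and Bmpr1b (0.00) were among the 4 genes at or below the olfactory receptor level.

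The 250 bases before the annotated start of these BMP and activin receptor genes, which differed in opposite directions (Acvr2a with the set as a block), are shown from the RefSeq promoter table (GRCm38.p6), in which 26 of the 34 genes were found. Capitals mark CAGAC or its complement GTCTG, a short SMAD motif, and CACCTG or CAGGTG, the E2-box motif of ZEB factors, searched on both strands. The motifs can share at most an end base.
Acvr1, chr2:58566829-58567078, minus strand: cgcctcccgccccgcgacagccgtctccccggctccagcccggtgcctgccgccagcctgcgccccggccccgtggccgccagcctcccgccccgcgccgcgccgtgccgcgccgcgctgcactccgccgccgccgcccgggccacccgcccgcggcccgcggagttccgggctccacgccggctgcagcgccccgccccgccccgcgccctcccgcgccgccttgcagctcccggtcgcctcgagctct
Acvr2a, chr2:48813859-48814108, plus strand: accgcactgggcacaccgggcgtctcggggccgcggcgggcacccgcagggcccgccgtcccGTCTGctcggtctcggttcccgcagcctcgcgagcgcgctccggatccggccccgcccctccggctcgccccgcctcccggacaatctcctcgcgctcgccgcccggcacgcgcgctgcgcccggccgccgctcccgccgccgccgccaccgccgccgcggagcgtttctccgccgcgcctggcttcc
The Acvr1 window held neither motif, and the Acvr2a window held 1 SMAD motif and no E2-box. Both are rich in G and C (85.6% and 82.0%). Over all 32851 windows of this length, 17.2% held the E2-box and 42.2% the SMAD motif, and among the 36 windows of the 26 genes 3 and 17 did. These are matches of letters only, and binding was not measured.

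**Figure D2:**
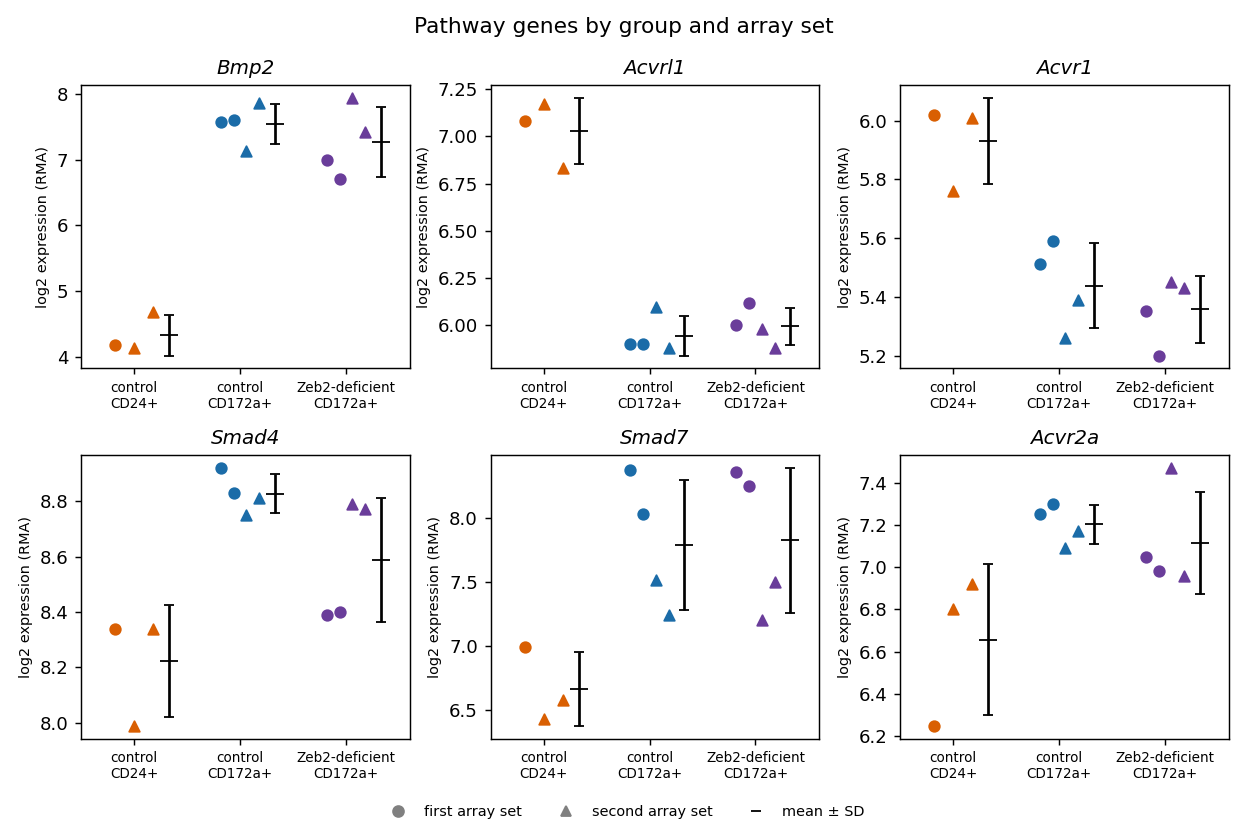
Points are single arrays, with the log2 RMA value on the vertical axis and the group on the horizontal axis; circles are the first and triangles the second array set, and bars give the mean ± SD. The vertical axes differ between genes and do not start at 0. CD24+ arrays lie apart from control CD172a+ arrays for all 6 genes, and Smad7 also falls from the first to the second set in each group.

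Among the SMADs, the common SMAD fell and the other 7 did not pass over all arrays. Smad4 read 8.34, 7.99 and 8.34 in CD24+ cDCs and 8.92, 8.83, 8.75 and 8.81 in control CD172a+ cDCs. The groups did not overlap, and the difference was -0.60 (SE 0.134, adjusted p = 0.0206), with -0.53 and -0.61 within the sets. The call was lost without CD24+ replicate 2 (-0.48, adjusted p = 0.0975) and, by a small margin, without control CD172a+ replicate 1 (-0.57, 0.0561) or replicate 2 (-0.60, 0.0518).

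Smad7, the inhibitory SMAD that is itself induced by TGF-beta, did not pass over all arrays but did so with the set as a block. It read 6.99, 6.43 and 6.58 in CD24+ cDCs and 8.38, 8.03, 7.52 and 7.24 in control CD172a+ cDCs. Every CD24+ array was below every control CD172a+ array, but the CD172a+ arrays of the first set were also above those of the second. Over all arrays the difference of -1.12 (SE 0.329) had an adjusted p of 0.0763. With the array set as a block it was -0.99 (SE 0.135, adjusted p = 0.000257), a 1.99-fold lower level, with -1.21 and -0.87 within the sets. The other inhibitory SMAD, Smad6, differed by -0.05.

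Of the receptor-regulated SMADs, Smad3 differed by 0.58 (95% interval -0.15 to 1.30) over all arrays and by 0.45 with the set as a block (adjusted p = 0.0522), and Smad2 by 0.30. The BMP-responsive Smad1, Smad5 and Smad9 differed by -0.21, 0.00 and 0.02. None of the regulators passed over all arrays. The corepressor genes Tgif1 and Tgif2 were lower in CD24+ cDCs with the set as a block (-0.48, adjusted p = 0.0418, and -0.45, adjusted p = 0.0255), but Tgif1 by -0.87 and -0.23 within the sets. Skil differed by 0.39, Ski by 0.09, Smurf1 by -0.10 and Smurf2 by -0.15. Over the 34 genes, the CD24+ and control CD172a+ arrays did not overlap for 9, against 14.6% of all genes.

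**Figure D3:**
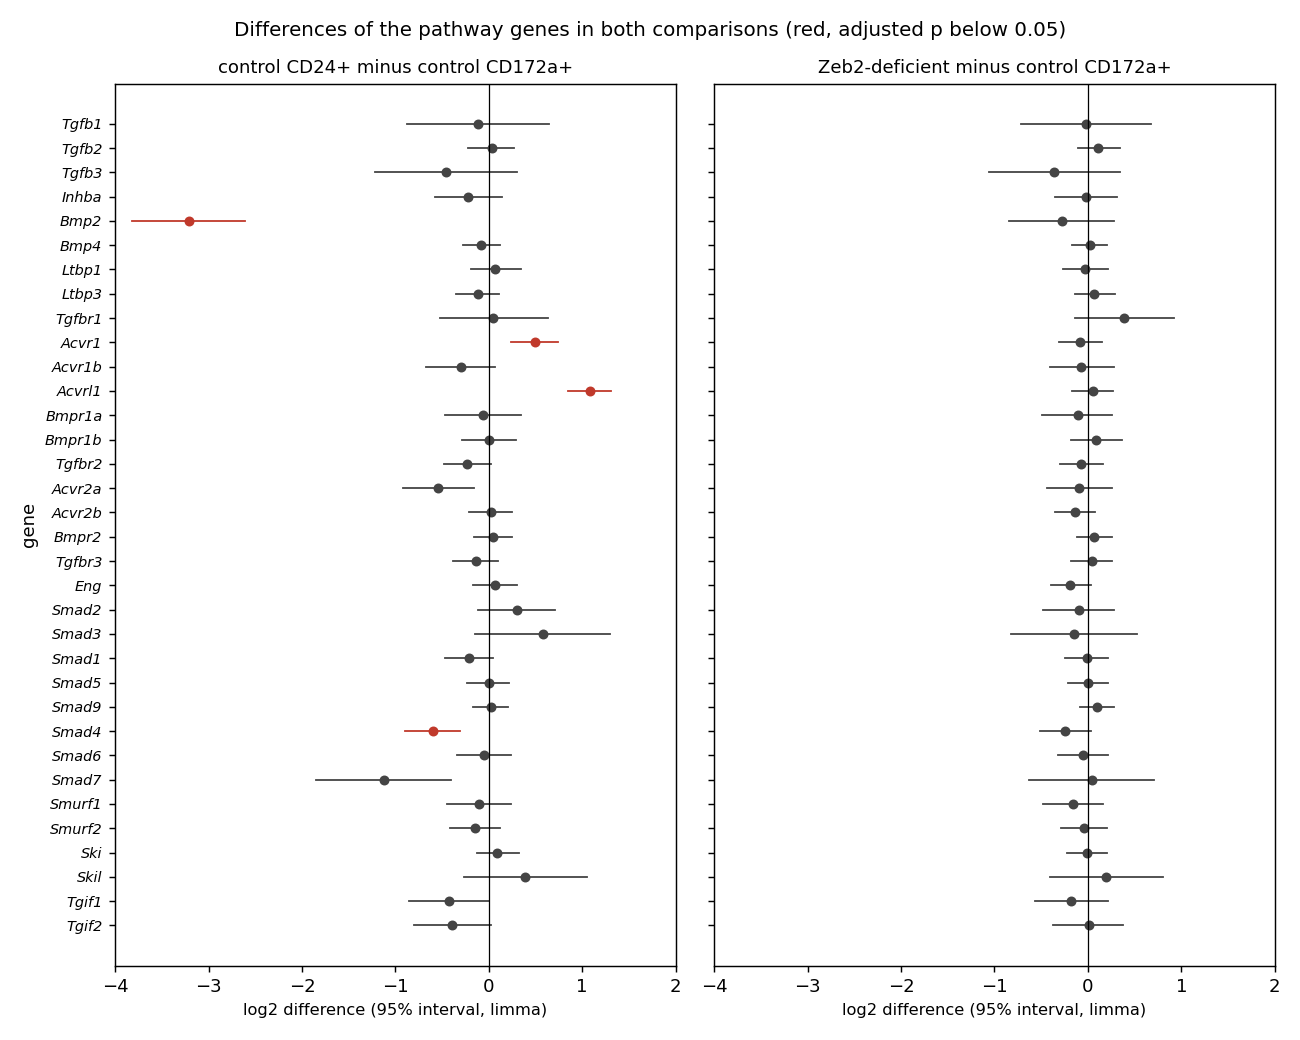
Points are log2 differences of the 34 genes and lines their 95% intervals in limma, with control CD24+ minus control CD172a+ cDCs on the left and Zeb2-deficient minus control CD172a+ cDCs on the right. Red marks an adjusted p below 0.05 over all genes, which 4 genes reached on the left and 0 on the right. Both panels share the control CD172a+ arrays.

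Other genes of the pathway were taken from 6 further lists of ligands, receptors, antagonists, latent TGF-beta activators, SMAD partners and targets, of which 100 genes were measured. Between the control subsets 7 of the 100 were higher and 4 lower in CD24+ cDCs, and 89 did not pass, beside 6.41% of all genes called. Their median was -0.04. The 11 calls fell to 7 without CD24+ replicate 1 and to 5 without replicate 2 or 3. With the array set as a block they were 21, beside 15.4% of all genes, and the split turned to 9 higher and 12 lower. Bmp8a was the only other ligand of 24 that passed, 1.59-fold lower (adjusted p = 0.019). Of 13 antagonists, Twsg1, which encodes the BMP-binding twisted gastrulation protein, was higher (0.78) and Fst, the activin antagonist follistatin, was lower (-0.39). None of 7 further receptors passed. Of 10 genes for latent TGF-beta, Ltbp2 was higher (0.36) and none lower, but with the set as a block 3 were also lower. These were Thbs1, which encodes the TGF-beta activator thrombospondin (-1.41 over all arrays, adjusted p = 0.231, and 5.56e-05 with the block), Mmp14 (-1.09, 0.0593 and 0.000689) and Nrros (-1.03, 0.319 and 0.00367). Itgb8, the integrin chain through which dendritic cells activate TGF-beta, differed by -0.08 (adjusted p = 0.936).

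Of 29 SMAD partners and regulators, 2 were higher and 2 lower in CD24+ cDCs, and 4 and 4 with the set as a block. Hipk2, a kinase that binds SMADs and corepressors, was higher by 0.73 (adjusted p = 0.000582) and Fkbp1a, the FKBP12 protein that keeps type I receptors inactive, by 0.86 (0.0151). Zeb2 was lower by 3.07, and Dab2, an endocytic adaptor of TGF-beta receptors, was lower by 0.75 (0.0161). Zeb1, the paralog of Zeb2, differed by -0.02. Of 17 target genes, 3 were higher and none lower over all arrays, and 3 were higher and 2 lower with the set as a block. The lower ones were the TGF-beta-induced genes Klf10 (-0.69 over all arrays, adjusted p = 0.354, and 0.000541 with the block) and Tsc22d1 (-0.81, 0.07 and 0.000853). Pmepa1, a TGF-beta target that restrains SMAD signalling, was 2.43-fold higher (adjusted p = 0.0294), Id2 2.03-fold (0.00971) and Itgae by 3.34 on the log2 scale. The log2 difference of Pmepa1 was 0.64 within the first array set and 1.49 within the second, so its size varied with the set. Itgae averaged 4.63 in control CD172a+ cDCs, below the olfactory receptor level of 4.75, so no exact ratio is given. Id2 and Itgae are also genes of the cDC1 subset itself. The BMP targets Id1 (-0.01) and Id3 (-0.03) did not differ measurably between the subsets. In CD24+ and control CD172a+ cDCs Id3 averaged 5.10 and 5.13 and Id1 5.28 and 5.29, little above 4.75. Background signal may therefore limit what both can show.

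Markers of other cells were read beside these differences. None of 10 stromal, 7 platelet or 8 T cell markers passed between the control subsets over all arrays, while 1 platelet and 2 T cell markers were lower in CD24+ cDCs with the set as a block. Of 12 splenic macrophage markers 1 was lower in CD24+ cDCs, Adgre1 (-4.57). The summed linear level of the 12 was 538 to 1025 in CD24+ and 1083 to 2347 in control CD172a+ cDCs, the direction of Bmp2. Their median difference was -0.41, but Hmox1 (0.46), Vcam1 (0.24) and Marco (0.11) differed the other way without passing. With the set as a block 4 of the 12 were lower. Of 9 B cell markers 1 was lower (293 to 383 against 355 to 571), and 4 with the block. Of 10 plasmacytoid DC markers 1 was higher, Ccr9, and 2 were lower, Spib and Tcf4, and the summed level of the 10 was 965 to 1142 against 863 to 1282. The part of these cells in the level of Bmp2 was not tested.

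The Zeb2 comparison, within CD172a+ cDCs, asks which of these genes depend on Zeb2 in that subset. No gene of the 34 passed the threshold. In limma 0 passed, with 0.0502% of all genes, and 0 had an unadjusted p below 0.05, with 3.88% of all genes. With the array set as a block 0 passed as well, with 0.145% of all genes, and 1 had an unadjusted p below 0.05. With the replicate number as a block 0 passed too, and 2 had an unadjusted p below 0.05. The smallest adjusted p with that block was 0.309, for Tgfbr1. The 2 groups of arrays overlapped for each of the 34 genes, while they did not overlap for 2.1% of all genes. The largest difference was that of Tgfbr1, 0.39, and the median of the 34 was -0.02 (0.01 over all genes). The 95% interval lay within a 2-fold change for 33 of 34 genes, the exception being Tgfb3 (-0.36, interval -1.06 to 0.34), and within 0.5 on the log2 scale for 25. Small changes of these genes are therefore not detectable with 4 arrays a group, and larger ones were not seen.

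Of the markers of other cells, 1 of 9 for B cells (Fcer2a) and 1 of 10 for plasmacytoid DCs (Cox6a2) were higher in the group labelled Zeb2-deficient. With the set as a block the B cell marker Ms4a1 was higher too (2.02 over all arrays, adjusted p = 0.135, and 0.00201 with the block). The summed B cell markers read 603 to 929 there and 355 to 571 in controls. Apart from Fcer2a and Ms4a1, the B cell markers differed by -0.18 (Cr2) to 0.46 (Blk) over all arrays. The median difference of the 9 was 0.07. The part of B cells in these values was not tested. None of the macrophage, platelet, T cell, endothelial or stromal markers passed.

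By role, the ligands differed by -0.36 to 0.11, the type I receptors by -0.11 to 0.39, the type II receptors by -0.14 to 0.07, the inhibitory SMADs by -0.05 to 0.04 and the corepressors by -0.18 to 0.19. Of the genes that separated the control subsets, Acvrl1 differed by 0.05 (95% interval -0.17 to 0.27), Acvr1 by -0.08 (-0.31 to 0.15), Smad7 by 0.04 (-0.63 to 0.71) and Bmp2 by -0.28 (-0.84 to 0.28). The Bmp2 values were -0.73 and 0.18 within the sets.

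The smallest p-values were those of Smad4, Eng, Tgfbr1 and Acvr2b, each with an adjusted p of 0.998. Smad4 read 8.39, 8.40, 8.79 and 8.77 in the labelled Zeb2-deficient arrays, a difference of -0.24 (95% interval -0.51 to 0.03). Its first 2 replicates were below every control array and the others within the control range, which gave -0.48 and 0.00 within the sets. Eng read 5.14, 5.35, 5.46 and 5.26 against 5.46, 5.54, 5.50 and 5.46, a difference of -0.19 with replicate 3 level with the controls. Tgfbr1, the type I receptor of TGF-beta, read 8.45, 8.20, 7.54 and 7.74 against 7.85, 8.09, 7.11 and 7.32. It was higher by 0.35 and 0.42 within the sets, and a block for the set gave an adjusted p of 0.51. Acvr2b read 5.07, 5.16, 5.34 and 5.40 against 5.34, 5.34, 5.52 and 5.33, a difference of -0.14.

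None of the 100 further pathway genes passed this comparison in limma (8 had an unadjusted p below 0.05), and their median difference was 0.01. Dab2 averaged 4.97 ± 0.14 in the labelled Zeb2-deficient and 5.67 ± 0.30 in the control arrays (SD, n = 4 each), a difference of -0.70 with no overlap. Its adjusted p was 0.399, and 0.0921 in the fit that had the set as a block. Id2 differed by 0.56 (adjusted p = 0.998, and 0.0742 with the block) and Runx1, a SMAD partner, by -0.46 (0.637 and 0.0921). Pmepa1 differed by 0.08, Id1 by 0.11 and Id3 by -0.21.

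Set against control CD24+ cDCs, CD172a+ cDCs labelled Zeb2-deficient had more Bmp2 (2.94, SE 0.275, adjusted p = 5.97e-05) and less Acvrl1 (-1.03, SE 0.106, adjusted p = 0.000117) and Acvr1 (-0.57, SE 0.112, adjusted p = 0.00977). This comparison shares its CD24+ arrays with the first one, so it is no independent evidence. Beside these, 3 B cell, 1 macrophage, 1 endothelial and 2 plasmacytoid DC markers were higher in the group labelled Zeb2-deficient and 1 plasmacytoid DC marker lower, with 4 B cell and 5 macrophage markers higher under the block. Their part in these differences was not tested. The Acvr1 call was lost without CD24+ replicate 3. In all 3 of 34 passed, 1 higher and 2 lower, with 3.25% of all genes higher and 3.92% lower. With the array set as a block 7 passed, 3 higher (7.52% of all genes) and 4 lower (10.7%), which added Smad7 (1.03, adjusted p = 0.000179), Tgif2 (0.45, 0.0212), Smad2 and Smad3 (-0.59, 0.0112). Smad4 differed by 0.36 (adjusted p = 0.164), and by 0.05 and 0.61 within the sets. Of the 100 other pathway genes, 3 were higher and 7 lower. Among them were Zeb2 (3.52), Hipk2 (-0.97), Runx1 (-0.58) and Pmepa1 (-1.20, with -0.58 and -1.39 within the sets). These 10 calls fell to 5 without replicate 1 and 6 without replicate 2 of the group labelled Zeb2-deficient, to 3 without CD24+ replicate 2 and to 6 without CD24+ replicate 3.

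Much of the variation of these genes within groups followed the array sets. With group in the model, 13 of the 34 (38.2%) differed between the sets with an adjusted p below 0.05, 8 higher and 5 lower in the second, near the 30.1% of all genes. This is a description, because the sets were found from the same arrays. Tgfb1 read 9.16 in CD24+, 9.35 and 9.23 in control CD172a+ and 9.68 and 9.39 in labelled Zeb2-deficient arrays of the first set, against 8.33 to 8.82 over the second. The fitted set difference was -0.80 for Tgfb1, -0.79 for Smad7 and -0.48 for Tgfbr1. It was 0.79 for Smad3, 0.74 for Skil, 0.70 for Tgfb3 and 0.32 for Smurf1. These were chosen after their values were seen.

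**Figure D4:**
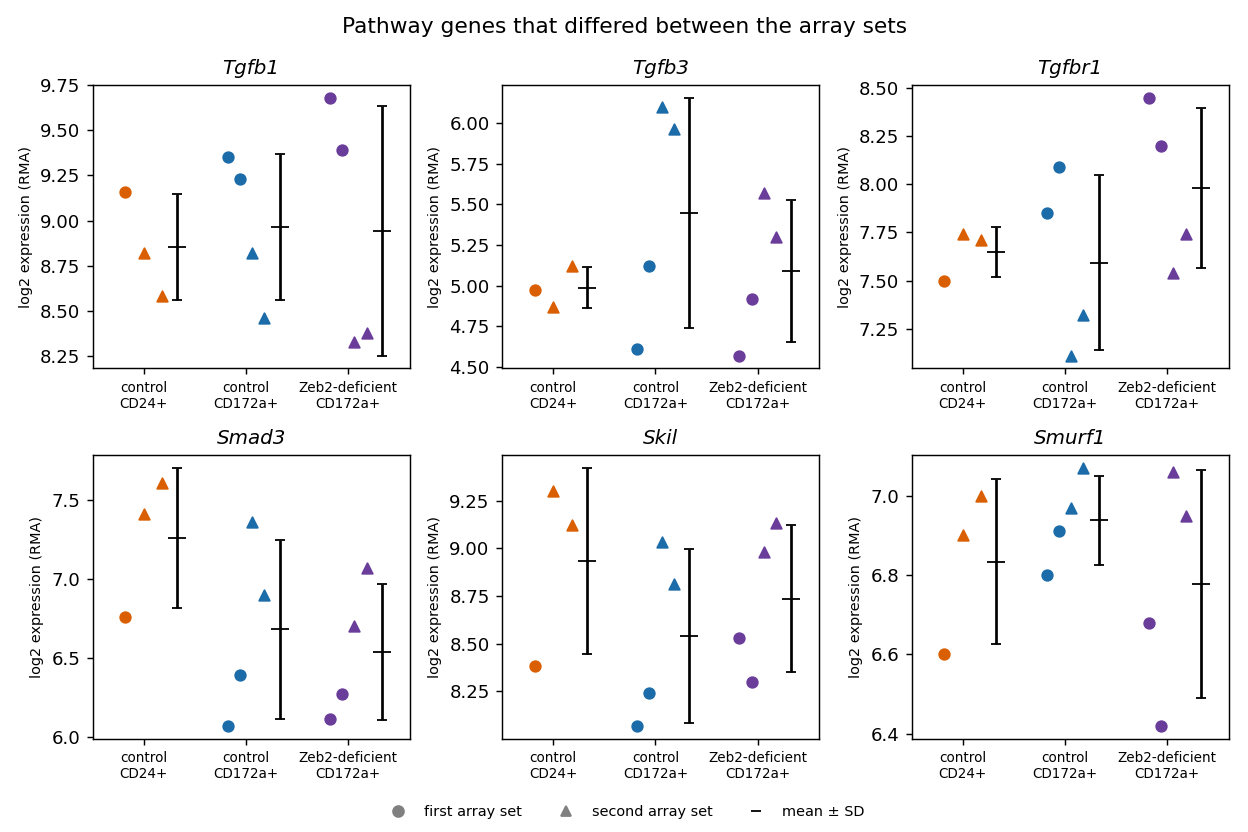
Points are single arrays by group, with the log2 RMA value on the vertical axis; circles are the first and triangles the second array set, and bars give the mean ± SD. Axes differ between genes and do not start at 0. Within each group Tgfb1 is higher, and Smad3 and Skil are lower, on circles than on triangles.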

How the data were processed

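The deposited table holds log2 expression values, 1 per probe set and array, which per the submitters' processing notes the authors computed by RMA. This method corrects background, equalizes the distributions of arrays and summarises probes, which compresses low values. Its version, probe filters and genome build are not given in the sources used here. The platform annotation gave 21789 of 30177 probe sets 1 gene symbol, 1621 several and 6767 none. The 19938 genes were each read by 1 probe set. Smurf2 alone of the 34 genes had more than 1.

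Differences came from limma 3.58.1 (R 4.3.3), fitted as 1 linear model over all 11 arrays, with Benjamini-Hochberg adjustment over all genes, two-sided, at 0.05. The fit was tested on simulated data with independent normal spread and no array sets, so that test does not cover the sets. Exact permutation used scipy 1.17.1. The number of arrays limits the precision.

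Named with values in every array of the groups compared were genes past the threshold in the subset or Zeb2 comparison. The 4 with the smallest p in each comparison were named in the same way. Of the further lists up to 4 per direction were named. Others were named after their values were seen. Members and lists were chosen with earlier results of these data known. Alternatives changed the samples, probe set, filter, normalization, variance model and blocks.

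Same-numbered arrays of both CD172a+ groups deviated together (r across genes 0.442 to 0.68 in 4 pairs), which served as pairing by the rule used. Arrays of other numbers but the same array set correlated as strongly (0.496 to 0.699), so the correlation does not set the number apart from the set. The block changed no call of the 34 genes there. CD24+ numbers did not pair (r from -0.445 to 0.506 with control CD172a+).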

Additional observations from a re-analysis of the deposited data

Results flagged for a closer look

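Of 68 groups of 4 arrays (34 genes in both CD172a+ groups), 6 had 1 array whose gap to the next filled most of the range of the group. With independent, normally distributed values, chance would give this for about 1 in 20 groups, and whether these values meet that was not tested. In control CD172a+ cDCs these were Tgfb2 in replicate 1 (4.52, others 4.92 to 4.97), Acvrl1 in replicate 3 (6.10, others 5.88 to 5.90) and Acvr2b in replicate 3 (5.52, others 5.33 to 5.34). In CD172a+ cDCs labelled Zeb2-deficient they were Tgfbr2 in replicate 1 (6.68, others 6.59), Smad9 in replicate 2 (5.44, others 5.29) and Smurf2 in replicate 1 (7.72, others 7.59 to 7.60). All 6 gaps are small in size, the widest being that of Tgfb2, and the Acvrl1 value lies below all 3 CD24+ arrays.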

How the results depend on the processing

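Bmp2 and Acvrl1 kept their direction and passed between the control subsets in each alternative run. Leaving out 1 array, the 34 genes gave 3 to 4 calls between control subsets, 0 for the Zeb2 comparison and 2 to 4 against CD24+ cDCs. All genes gave 874 to 1220, 7 to 11 and 985 to 1533, the further pathway genes 5 to 11, 0 and 3 to 11, and the Zeb2 difference was 0.30 to 0.61. With the array set as a block the calls of the 34 were 8, 0 and 7, of all genes 3080, 29 and 3641 and of the further pathway genes 21, 0 and 25. With only the groups compared, pathway calls between control subsets were 6 and all genes in the Zeb2 comparison 5. In the first array set alone the latter were 0 (2260 at an unadjusted p below 0.05), and the third comparison gave 5 calls of the 34. With the replicate number as a block, 762 genes and 6 pathway genes passed between control subsets, where Acvr1 (0.47) and Smad4 (-0.61) did not pass, 26 genes in the Zeb2 comparison, and 5 of the 34 against CD24+ cDCs. In comparisons with CD24+ cDCs the replicate block joined arrays of different sets. Replicate 2 was in the second set for CD24+ cDCs and in the first for both CD172a+ groups. The causes of the changes between alternatives were not tested. The called differences of Bmp2, Acvrl1, Acvr1 and Smad4 between control subsets kept their sign in each alternative. Uncalled ones did not all do so: within single array sets the sign differed, among others, for Bmp2 (-0.73 and 0.18) in the Zeb2 comparison and for Tgfb3 (0.10 and -1.03) and Tgfbr1 (-0.47 and 0.50) between control subsets. The signal of dim probe sets limits Bmp4, Bmpr1a, Bmpr1b and Smad6. Tgfb2 (group means 4.83 to 4.95), Ltbp1 (4.85 to 4.95) and Inhba (4.89 to 5.11) lay little above the level of 4.75. The same limit may hold for them.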
